A study of Mus musculus with 12 samples.

Results

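Neurofilament genes and widely used neuron genes were examined in RNA from the organ of Corti of mice at postnatal day 21. The set was defined by symbol and held 10 genes, namely Nefl, Nefm, Nefh, Ina, Tubb3, Thy1, Map2, Stmn2, Uchl1 and Gap43, out of 55348 genes with a count in the deposited tables. All 10 passed the filter on low counts that left 19052 genes for testing, and the lowest count of any of them in a library was 101, for Gap43.

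RNA sequencing covered 12 libraries, 3 for each of 4 genotypes. Wild-type mice carried no clarin mutation. Clrn1-/- mice lacked clarin-1 in the whole animal, since the floxed part of the gene had been deleted with PGK-cre, a ubiquitous Cre line. Clrn2-/- mice carried the clarinet allele, an early nonsense mutation of Clrn2, in both copies, and Clrn1-/-Clrn2-/- mice came from crossing both lines and lacked both clarins. Wild-type mice were bred apart from the mutants, so that breeding and genotype cannot be told apart in any comparison with wild-type. By the general methods of the study the mice of a group came from more than a single litter. Whether an RNA library held a single animal or a pool is not given, and p-values measure the spread between these libraries.

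Clarin-1 and clarin-2 are membrane proteins of the hair cells, and both are needed for hearing. The study also found RNA of both in most primary auditory neurons. The organ of Corti holds the hair cells and their supporting cells, and the stria vascularis and the modiolus had been removed from it. The cell bodies of the spiral ganglion neurons, which carry the signals of the hair cells to the brain, lie in the modiolus, whereas their peripheral fibers run to the hair cells. Neurofilaments are the intermediate filaments of axons. They are built from a light (Nefl), a medium (Nefm) and a heavy (Nefh) subunit together with alpha-internexin (Ina), and their amount is known to set the caliber of large myelinated axons. In injured peripheral neurons, neurofilament transcripts are known to fall while genes of growth and repair rise.

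Counts on genes ranged from 30008679 to 41049302 per library. Levels are given in CPM, the count of a gene scaled to the size of its library, after adjustment by the trimmed mean of M-values (TMM). Clrn1 lay at 23.8 to 28.6 CPM in wild-type and at 1.77 to 3.04 CPM in the 6 libraries without clarin-1. Clrn2 lay at 1.89 to 3.24 CPM in wild-type, at 1.04 to 1.38 CPM in Clrn2-/- and at 0.854 to 1.04 CPM in Clrn1-/-, so that its RNA did not separate the Clrn2 mutants from the Clrn1 mutants. Hair cell markers summed to 317 to 382 CPM in wild-type libraries, whereas Schwann cell and myelin genes summed to 24036 to 25011 CPM.

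The neurofilament genes lie on several chromosomes. On GRCm38, Nefl spans chr14:68083863-68089095 on the plus strand and Nefm chr14:68082590-68124846 on the minus strand, Nefh chr11:4938754-4948064 on the minus strand and Ina chr19:47014698-47025327 on the plus strand. The subunits share a rod domain, and reads from one gene could in principle be placed on another. Over whole transcripts, taking the transcript with the longest open reading frame of each gene, the longest run of identical bases between any pair was 23, between Nefm and Nefh, which is far shorter than a read.

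Nefl lies wholly within the annotated span of Nefm, on the opposite strand. An annotated long form of Nefm shares 1108 exonic bases with Nefl, or 32.8% of the exons of Nefl, and the deposited counts were therefore taken in the orientation of the stranded library kit. Without regard to strand, Nefl kept only 48.2% to 50.5% of these counts, since reads in the shared bases could not be assigned to either gene. Uchl1 (with its antisense gene Uchl1os, 295 shared bases) and Ina (with Nt5c2, 456 shared bases) kept 82.1% to 85.7% and 88.6% to 91.9%. Counts without regard to strand gave the same call for every member in every comparison.

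The 3 neurofilament genes were among the most abundant transcripts of the tissue. In wild-type, Nefh ranked 17, Nefl 23 and Nefm 24 of all genes by mean CPM, and the triplet made up 0.747% to 0.794% of all counts on genes. Map2, Tubb3, Thy1, Uchl1 and Ina ranked between 153 and 294, Stmn2 ranked 665 and Gap43 12973. Per kilobase of transcript, the wild-type levels of Nefm (741 ± 32.3 CPM per kb), Nefl (737 ± 46.1) and Nefh (723 ± 28.6; SD, n = 3) lay within each other's spread. They were followed by Uchl1 (379.8 ± 23.0), Tubb3 (307 ± 13.3) and Thy1 (293 ± 16.5), whereas Ina (119.9 ± 4.07), Stmn2 (112 ± 4.59), Map2 (92.0 ± 5.77) and Gap43 (2.53 ± 0.475) were lower still. Tubb3 and Thy1 were the neighbors whose spreads met, and so were Ina and Stmn2.

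**Figure D1:**
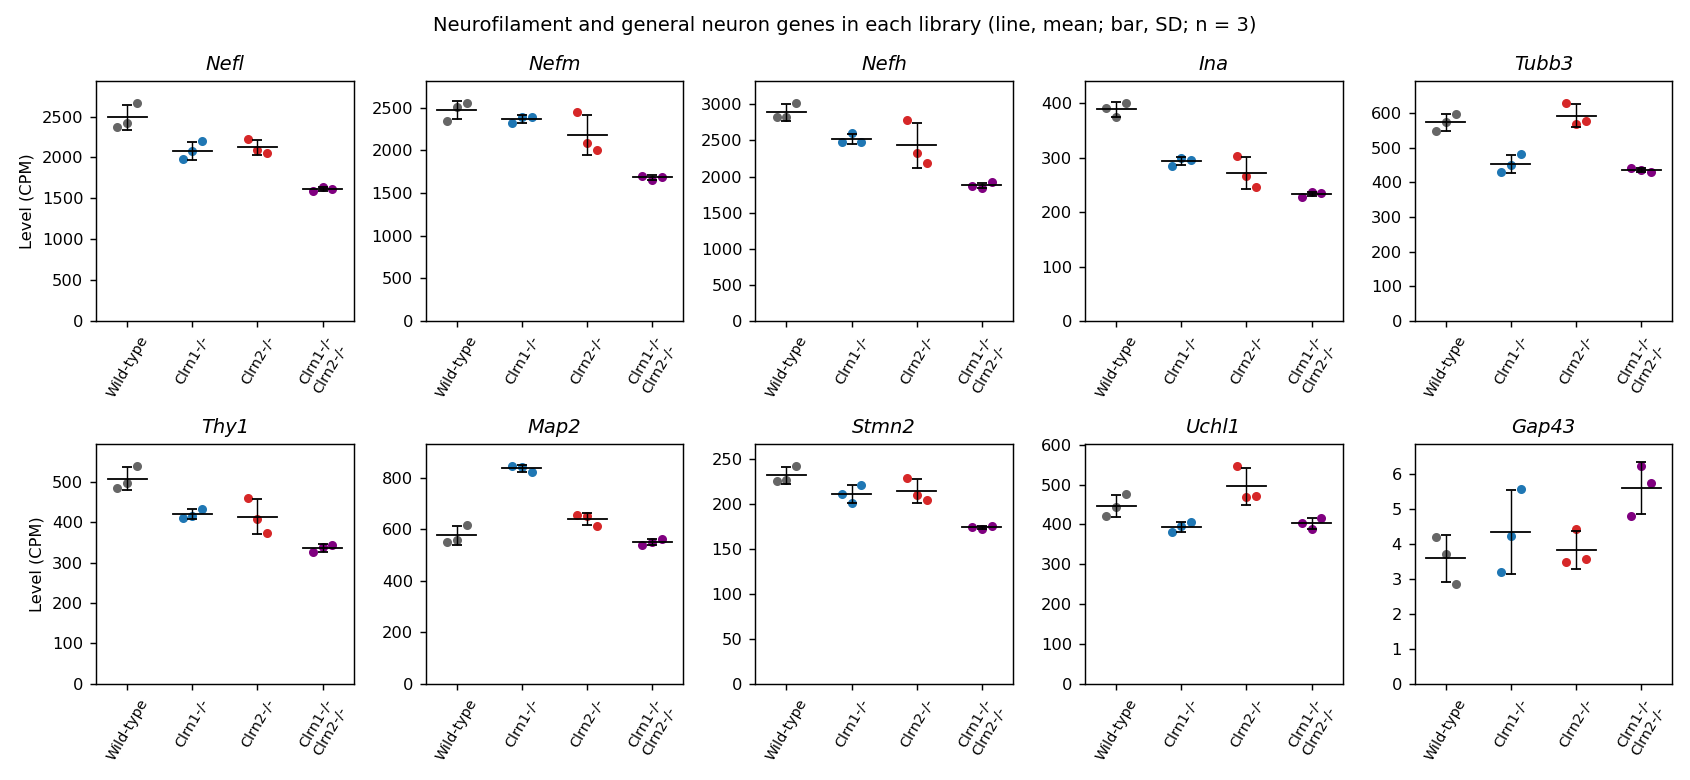
Level in CPM of each gene (vertical axis, starting at 0) in the 12 libraries by genotype, with the mean as a line and the SD as a bar (n = 3). The Clrn1-/-Clrn2-/- libraries are the lowest for Nefl, Nefm, Nefh, Ina, Thy1 and Stmn2, whereas Map2 is highest in Clrn1-/- and Gap43, at 2.86 to 6.24 CPM, is scarce.

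Neurofilament transcripts were lowest when both clarins were missing. The sum of Nefl, Nefm and Nefh was 7851 ± 357 CPM in wild-type (SD, n = 3). It was 6976 ± 171 CPM, or 88.8% of wild-type, in Clrn1-/-, 6739 ± 635 CPM (85.8%) in Clrn2-/- and 5183 ± 46.2 CPM (66.0%) when both were absent. In Clrn1-/-Clrn2-/- mice the triplet made up 0.517% to 0.526% of counts. In bulk tissue, fewer neuronal fibers or cells and less RNA per neuron cannot be told apart.

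A gene passed the test at an adjusted p of at most 0.05 by edgeR's quasi-likelihood test with Benjamini-Hochberg adjustment over all 19052 genes, and it was called if it had also changed by at least 1.5-fold. In Clrn1-/-Clrn2-/- mice against wild-type, 4 of the 10 genes were called lower (Nefl, Nefh, Ina and Thy1), where 4.02% of all genes were, and 1 was called higher (Gap43), where 5.88% were. By the adjusted p alone, 7 of 10 fell and 1 rose, beside 17.9% and 19.1% of all genes. The libraries of both genotypes did not overlap for 8 genes that were lower and 1 that was higher in the double mutant, beside 23.2% and 25% of all genes. The median log2 fold change of the 10 genes was -0.48. That of all genes was 0.00101, which TMM holds near 0 by design, so that it cannot show whether a general shift existed. With library size alone it was 0.0422.

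The single mutants differed less from wild-type. None of the 10 genes was called in Clrn1-/-, where 3.7% of all genes were called lower and 3.52% higher, and none in Clrn2-/-, where 1.42% and 1.24% were. limma-voom and DESeq2 called 0 as well, and 8 genes in each of these comparisons had an unadjusted p below 0.05 in edgeR. By the adjusted p alone, 5 genes fell and 1 rose in Clrn1-/- (13.3% and 13.6% of all genes), and 4 fell and 0 rose in Clrn2-/- (7.07% and 7.14%). Fitted with wild-type alone, only Ina and Thy1 fell in Clrn2-/-, that is 2 genes instead of 4, since Nefl (adjusted p = 0.0881) and Nefh (adjusted p = 0.148) then missed the threshold. With limma-voom, 6 fell and 1 rose in Clrn1-/- and 4 fell and 1 rose in Clrn2-/-. In Clrn2-/-, 4 fell and 2 rose with library size alone, and 5 fell and 2 rose without the filter on low counts. At an unadjusted p below 0.05 in edgeR, 2 genes of Clrn2-/- were higher. Libraries did not overlap with wild-type for 7 lower and 1 higher genes in Clrn1-/- (19.8% and 20.5%) and for 4 lower and 0 higher genes in Clrn2-/- (14.4% and 14.6%). The median log2 fold changes were -0.19 and -0.15. All 3 comparisons share the wild-type libraries and are therefore not independent of each other.

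**Figure D2:**
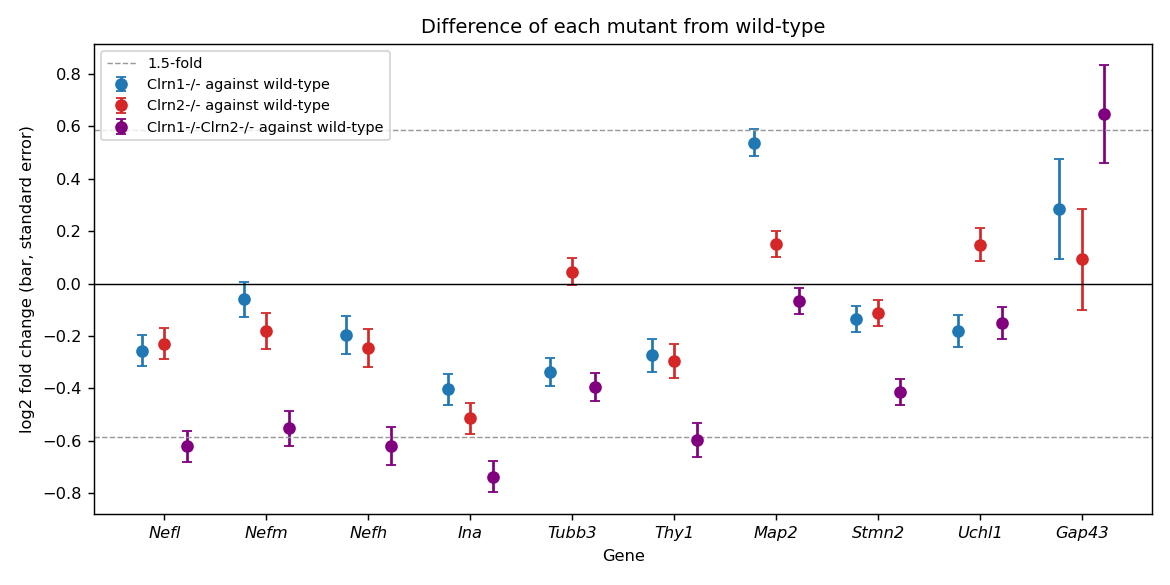
log2 fold change against wild-type (vertical axis; bars, standard error) of the 10 genes in Clrn1-/-, Clrn2-/- and Clrn1-/-Clrn2-/- mice, with dashed lines at 1.5-fold. Nefl, Nefh, Ina and Thy1 lie beyond the lower line in Clrn1-/-Clrn2-/- alone, Gap43 lies above the upper one, and Map2 is well above 0 in Clrn1-/- at 0.54.

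Nefl, the light subunit without which neurofilaments do not assemble, stood at 2378, 2425 and 2668 CPM in wild-type, at 1978, 2075 and 2197 in Clrn1-/-, at 2221, 2097 and 2052 in Clrn2-/- and at 1594, 1642 and 1619 in Clrn1-/-Clrn2-/-. Every single-mutant library lay below every wild-type library and above every double-mutant library. Nefl fell by 0.26 on the log2 scale in Clrn1-/- (standard error 0.0592, adjusted p = 0.00445), by 0.23 in Clrn2-/- (0.0592, adjusted p = 0.0164) and by 0.62 in Clrn1-/-Clrn2-/- (0.0594, adjusted p = 7.39e-07). Both single mutants lay close together, with a difference of -0.03 that did not pass the test (adjusted p = 0.798).

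Nefm, the medium subunit with a phosphorylated side arm, stood at 2351, 2507 and 2558 CPM in wild-type, at 2317, 2397 and 2396 in Clrn1-/-, at 2451, 2086 and 2005 in Clrn2-/- and at 1706, 1656 and 1693 in Clrn1-/-Clrn2-/-. Both single mutants overlapped with wild-type, and the double mutant lay below all other libraries. The log2 fold change was -0.06 in Clrn1-/- (adjusted p = 0.549) and -0.18 in Clrn2-/- (adjusted p = 0.0883), and Nefm fell by 0.55 in Clrn1-/-Clrn2-/- (standard error 0.0676, adjusted p = 9.2e-06), which is below the fold minimum. The difference of the double mutant from wild-type departed from the sum of both single-mutant differences by -0.31 on the log2 scale (interaction, standard error 0.0953, adjusted p = 0.034). Leaving out a single library took this adjusted p to between 0.00636 and 0.0717, and it missed the threshold without Clrn1-/- replicate 2 (0.056), Clrn1-/- replicate 3 (0.0507), Clrn1-/-Clrn2-/- replicate 2 (0.0639) or wild-type replicate 1 (0.0717).

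Nefh, the heavy subunit, stood at 2824, 2822 and 3021 CPM in wild-type, at 2483, 2600 and 2485 in Clrn1-/-, at 2784, 2328 and 2194 in Clrn2-/- and at 1873, 1845 and 1921 in Clrn1-/-Clrn2-/-. The first Clrn2-/- library nearly reached wild-type, and for Nefm it lay within the wild-type range. Its triplet sum of 7457 CPM compared with 6511 and 6251 in the other Clrn2-/- libraries. Nefh fell by 0.25 in Clrn2-/- (standard error 0.0732, adjusted p = 0.0345) and by 0.62 in Clrn1-/-Clrn2-/- (0.0735, adjusted p = 6.71e-06), and its value of -0.20 in Clrn1-/- missed the threshold (adjusted p = 0.0596). Without Clrn2-/- replicate 1, the number of the 10 genes that fell in Clrn2-/- was 6 instead of 4, and Ina was called at -0.60, whereas without replicate 2 or 3 it was 2.

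Ina, which co-assembles with the triplet and is made earlier in development, stood at 390.3, 374 and 401 CPM in wild-type, at 286, 299.9 and 295 in Clrn1-/-, at 304, 265 and 246 in Clrn2-/- and at 228, 236 and 235 in Clrn1-/-Clrn2-/-. All 9 mutant libraries lay below wild-type, and the double mutant was the lowest. Ina fell by 0.40 in Clrn1-/- (standard error 0.0598, adjusted p = 0.000133), by 0.51 in Clrn2-/- (0.06, adjusted p = 4.45e-05) and by 0.74 in Clrn1-/-Clrn2-/- (0.0602, adjusted p = 1.43e-07). The interaction was 0.18, opposite in sign to that of Nefm, and did not pass the test (adjusted p = 0.161).

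The make-up of the neurofilament transcripts was read from shares per length, in which the CPM per kilobase of each gene is divided by the sum over Nefl, Nefm, Nefh and Ina in the same library. Ina held 5.17% ± 0.190 in wild-type, against 4.42% ± 0.0419 in Clrn1-/-, 4.24% ± 0.0846 in Clrn2-/- and 4.71% ± 0.0905 in the double mutant (SD, n = 3), and every mutant library lay below the lowest wild-type library at 5.04%. Nefm held 31.9% ± 0.754 in wild-type and 34.7% ± 0.206 in Clrn1-/-, without overlap, and 33.1% in both other mutants. Nefh kept 30.8% to 31.2% in all genotypes, and Nefl held 30.1% ± 1.00 in Clrn1-/-, below the 31.7% ± 0.592 of wild-type without overlap, and 31.9% ± 1.58 in Clrn2-/- and 31.4% ± 0.567 in the double mutant, which overlapped with wild-type. The shares are a description and were not tested.

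**Figure D3:**
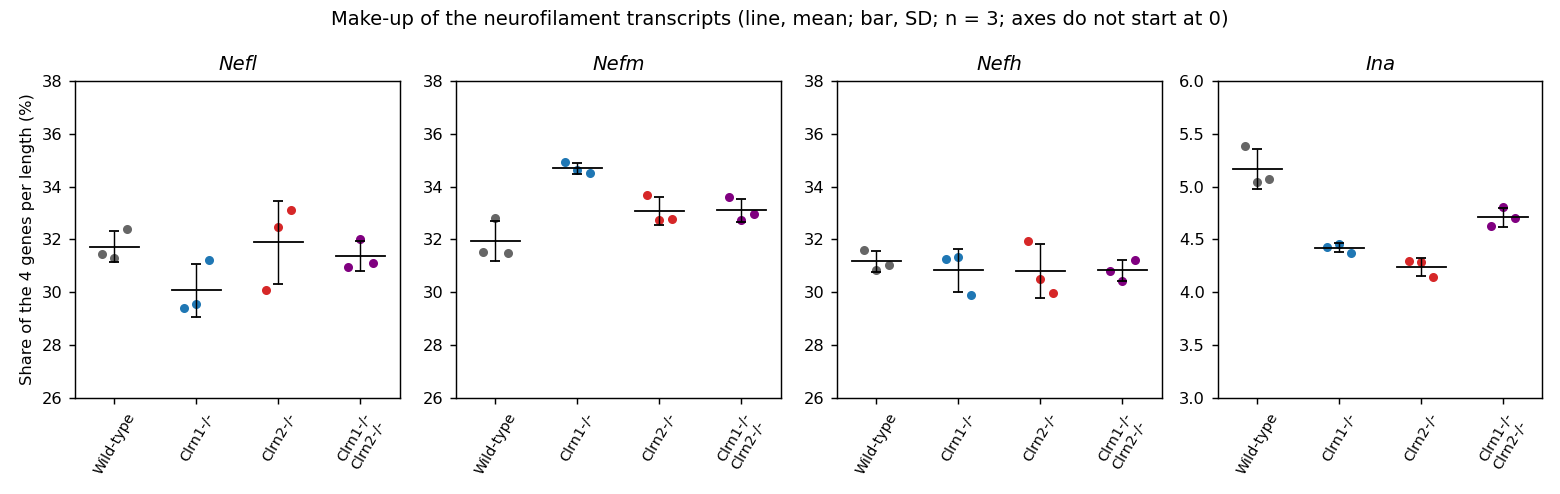
Share of each neurofilament gene in the sum of the 4 genes per length (vertical axes in percent, not starting at 0) in the 12 libraries, with the mean as a line and the SD as a bar (n = 3). Ina lies at 4.15% to 4.81% in the mutants and at 5.04% to 5.39% in wild-type, and Nefm is highest in Clrn1-/-.

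Genes of the neuronal microtubules did not move as a block. Tubb3, the neuron-specific beta-tubulin, stood at 548, 573 and 598 CPM in wild-type, at 429, 449.5 and 481 in Clrn1-/-, at 629, 568 and 577 in Clrn2-/- and at 441, 436 and 429.6 in Clrn1-/-Clrn2-/-. The libraries without clarin-1 thus lay below all others, whereas Clrn2-/- overlapped with wild-type. Tubb3 fell by 0.34 in Clrn1-/- (standard error 0.0532, adjusted p = 0.000221) and by 0.40 in Clrn1-/-Clrn2-/- (0.0532, adjusted p = 2.4e-05), with a value of 0.05 in Clrn2-/- (adjusted p = 0.637). The double mutant and Clrn1-/- differed by -0.06 (adjusted p = 0.461).

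Map2, a microtubule-associated protein of dendrites and cell bodies, stood at 551, 559 and 617 CPM in wild-type, at 847, 839 and 821 in Clrn1-/-, at 655, 649 and 612 in Clrn2-/- and at 538, 549.6 and 562 in Clrn1-/-Clrn2-/-. Each Clrn1-/- library was above every library of the other genotypes. Map2 rose by 0.54 on the log2 scale in Clrn1-/- (standard error 0.0498, adjusted p = 1.4e-06), just under the fold minimum, while the values were 0.15 in Clrn2-/- (adjusted p = 0.0549) and -0.07 in Clrn1-/-Clrn2-/- (adjusted p = 0.33). The double mutant was called lower than Clrn1-/- by -0.60 (adjusted p = 3.15e-07). The interaction, at -0.75 (standard error 0.0704, adjusted p = 5.31e-06), was the only one called among the 10 genes, where 1.92% of all genes had a called negative and 3.58% a called positive interaction.

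Relative to Nefl, Map2 gave a ratio of CPM of 0.231 ± 0.000625 in wild-type (SD, n = 3). The ratio was 0.402 ± 0.0272 for Clrn1-/-, 0.301 ± 0.00758 for Clrn2-/- and 0.340 ± 0.00631 for the double mutant. All 9 mutant libraries had a higher ratio than wild-type. This was also so for Uchl1 over Nefl, whose mean was 0.1795 for wild-type and 0.1895 for Clrn1-/-, 0.233 for Clrn2-/- and 0.249 for the double mutant, and for Stmn2 over Nefl, with 0.0931, 0.101, 0.101 and 0.107. Thy1 over Nefl gave 0.204 ± 0.00129 for wild-type against 0.2015 ± 0.00508 for Clrn1-/-, 0.194 ± 0.0124 for Clrn2-/- and 0.207 ± 0.00384 for the double mutant, with overlap between wild-type and each mutant. These ratios are a description and were not tested.

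Stmn2, a stathmin that destabilizes microtubules in growing axons, stood at 225, 227 and 243 CPM in wild-type, at 211, 201 and 221 in Clrn1-/-, at 229, 210.2 and 204 in Clrn2-/- and at 174, 172 and 175 in Clrn1-/-Clrn2-/-. The double-mutant libraries were the lowest and had a coefficient of variation of only 0.712%. Stmn2 fell by 0.41 in Clrn1-/-Clrn2-/- (standard error 0.0501, adjusted p = 8.22e-06), and its values of -0.13 in Clrn1-/- (adjusted p = 0.058) and -0.11 in Clrn2-/- (adjusted p = 0.157) missed the threshold.

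Thy1, a glycoprotein of the neuronal surface, followed the neurofilament triplet. It stood at 486, 497 and 540 CPM in wild-type, at 409.9, 415 and 434 in Clrn1-/-, at 459, 407 and 373 in Clrn2-/- and at 325, 339 and 343 in Clrn1-/-Clrn2-/-. Both single mutants lay between wild-type and the double mutant without overlap. Thy1 fell by 0.27 in Clrn1-/- (standard error 0.0637, adjusted p = 0.00469), by 0.30 in Clrn2-/- (0.0637, adjusted p = 0.00544) and by 0.60 in Clrn1-/-Clrn2-/- (0.064, adjusted p = 2.43e-06).

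Uchl1, a ubiquitin hydrolase abundant in neurons, differed from Thy1. It stood at 422, 443 and 476 CPM in wild-type, at 381, 397 and 405 in Clrn1-/-, at 548, 468 and 470.3 in Clrn2-/- and at 403, 389 and 415 in Clrn1-/-Clrn2-/-. As with Tubb3, the libraries without clarin-1 were the lowest. Uchl1 fell by 0.18 in Clrn1-/- (standard error 0.0612, adjusted p = 0.0396), while its values of 0.15 in Clrn2-/- (adjusted p = 0.122) and -0.15 in Clrn1-/-Clrn2-/- (adjusted p = 0.0652) did not pass the test.

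Gap43, a protein of the growth cone, was scarce. It stood at 4.19, 3.73 and 2.86 CPM in wild-type, at 3.20, 4.22 and 5.58 in Clrn1-/-, at 3.47, 4.44 and 3.57 in Clrn2-/- and at 4.79, 6.24 and 5.75 in Clrn1-/-Clrn2-/-. The double-mutant libraries lay above wild-type but overlapped with Clrn1-/-. Gap43 rose by 0.65 in Clrn1-/-Clrn2-/- (standard error 0.187, adjusted p = 0.0125), whereas the values in Clrn1-/- (0.28, adjusted p = 0.299) and Clrn2-/- (0.09, adjusted p = 0.81) did not pass the test. Its coefficient of variation reached 27.7%, beside at most 12.7% for the other genes, and the call was lost without Clrn1-/-Clrn2-/- replicate 2 (adjusted p = 0.0631) or without wild-type replicate 3 (adjusted p = 0.0583).

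Among the wild-type libraries, replicate 3 had the highest level of every gene of the set other than Gap43, for which it had the lowest. Without it, 2 instead of 5 genes were called in the double mutant, Nefh and Ina, while Nefl (-0.58) and Thy1 (-0.56) still passed the test but not the fold minimum. The number that fell by the adjusted p alone was 7 with any of these 6 libraries left out, other than wild-type replicate 1, without which it was 8. Nefm was called at -0.59 without wild-type replicate 1, and Thy1 (-0.58) missed the fold minimum without Clrn1-/-Clrn2-/- replicate 1 as well.

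The mutants differed among themselves. In Clrn1-/-Clrn2-/- against Clrn1-/-, 7 of the 10 genes fell and 0 rose by the adjusted p (14.6% and 15.7% of all genes), namely Nefl, Nefm, Nefh, Ina, Thy1, Stmn2 and Map2, and Map2 was called (2.61% called lower and 4.62% higher). Against Clrn2-/-, 9 fell and Gap43 rose (13.2% and 14.4%), and none was called (1.43% and 3.67%). The neurofilament genes fell by 0.33 to 0.49 against Clrn1-/- and by 0.22 to 0.39 against Clrn2-/- on the log2 scale. Between both single mutants, 2 genes were lower in Clrn1-/- than in Clrn2-/- (Tubb3 and Uchl1, by -0.38 and -0.33) and Map2 was higher by 0.39 (8.99% and 9.51% of all genes), and none was called (2.34% and 2.4%). By the adjusted p alone, 2 genes had a negative interaction, Map2 and Nefm, and 0 a positive one (8.06% and 9.32%), also with limma-voom and DESeq2. At an unadjusted p below 0.05 in edgeR, 0 genes were higher in Clrn1-/-Clrn2-/- than in Clrn1-/-, 10 differed between Clrn1-/-Clrn2-/- and Clrn2-/-, 3 between both single mutants, and 1 had a positive interaction, Ina.

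Of the 4 members with a promoter sequence to hand, Map2 rose in Clrn1-/- whereas Ina, Tubb3 and Uchl1 fell. The bases before the start sites of Map2 and of Ina, which had the longest window of those that fell, are shown side by side. The sequences are those of RefSeq on GRCm38.p6, on the plus strand, 5′ to 3′, and were limited to bases outside annotated exons. Capitals mark GGGCGG, the GC box, on either strand.
Ina, chr19:47014431-47014680: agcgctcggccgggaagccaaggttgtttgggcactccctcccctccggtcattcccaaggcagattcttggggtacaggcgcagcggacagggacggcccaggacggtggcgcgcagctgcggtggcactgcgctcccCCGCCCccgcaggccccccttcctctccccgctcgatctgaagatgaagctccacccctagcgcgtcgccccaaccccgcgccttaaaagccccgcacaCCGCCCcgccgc
Map2, chr1:66175079-66175272: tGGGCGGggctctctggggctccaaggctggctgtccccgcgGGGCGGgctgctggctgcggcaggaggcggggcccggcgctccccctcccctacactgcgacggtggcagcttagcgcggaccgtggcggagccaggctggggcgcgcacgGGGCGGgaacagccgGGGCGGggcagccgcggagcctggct
The 250 bases of Ina held 2 GC boxes and the 194 bases of Map2 held 4, and neither held CCAAT or TATAAA on either strand. The windows of Tubb3 (121 bases, 1 GC box) and Uchl1 (28 bases, 0) were shorter and held neither of these motifs. Of 32851 promoters, 32.7% held at least 1 GC box, 33.8% CCAAT and 12.4% TATAAA in their 250 bases, and 23.6%, 27.5% and 8.9% did in the first 194 of them. The motifs do not overlap with each other, and a match in this window is a description of its letters only.

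Related genes were described by lists drawn up with earlier results of these data known, so that their counts are a description and not independent evidence. Of 35 genes of the neuronal cytoskeleton and axonal transport outside the 10 members, 23 fell and 1 rose by the adjusted p in Clrn1-/-Clrn2-/- mice. Of all genes, 17.9% fell and 19.1% rose. In the list 4 were called lower and 1 was called higher, beside 4.02% and 5.88% of all genes, and the median log2 fold change was -0.34. In Clrn1-/-, 7 fell and 6 rose with a median of -0.03, beside 13.3% and 13.6% of all genes. In Clrn2-/-, 7 fell and 3 rose with a median of -0.10, beside 7.07% and 7.14%. The genes called lower included Crmp1 (-0.88), a semaphorin signaling protein that binds microtubules, Ank2 (-0.76), an ankyrin that ties membrane proteins to spectrin, and Tubb4a (-0.60), a beta-tubulin of neurons and oligodendrocytes. The gene called higher was Prph, which encodes peripherin, an intermediate filament of peripheral neurons that in the spiral ganglion marks type II neurons. Prph lay at 4.71 ± 1.58 CPM in wild-type and 4.01 ± 0.693 CPM in Clrn1-/-, but at 8.87 ± 0.0881 CPM in Clrn2-/- and 9.54 ± 0.423 CPM in the double mutant (SD, n = 3). Unlike the other intermediate filament genes, it was thus higher in the libraries without clarin-2 (log2 fold change 1.02 in the double mutant, adjusted p = 0.000238).

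In the same list, 11 of 35 genes had a negative interaction by the adjusted p and 1 a positive one, beside 8.06% and 9.32% of all genes. The median was -0.17 beside 0.00514 over all genes. Ank2 was called for its interaction at -0.89 and Dpysl2 at -1.06, the same sign as Map2. Dpysl2, a collapsin response mediator that carries tubulin dimers and was singled out after its values were seen, lay at 179 ± 10.4 CPM in wild-type, rose to 260.2 ± 6.49 CPM in Clrn1-/- and 246 ± 1.28 CPM in Clrn2-/-, and lay at 172 ± 7.59 CPM in the double mutant (SD, n = 3). Ank2 lay at 1082 ± 8.99 CPM in wild-type, rose to 1449 ± 120.1 CPM in Clrn1-/- and fell to 886 ± 69.2 CPM in Clrn2-/- and 638 ± 17.1 CPM in the double mutant.

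Among 25 further general neuron genes, 17 fell and 2 rose by the adjusted p in Clrn1-/-Clrn2-/-, beside 17.9% and 19.1% of all genes. Of these 25, 6 were called lower, beside 4.02% of all genes. The median was -0.38, compared with medians of -0.08 in Clrn1-/- and -0.16 in Clrn2-/-. The genes with the largest called decreases were Snap25 (-0.73) of the vesicle fusion machinery, Sncb (-0.72), which encodes beta-synuclein, and Chgb (-0.64), a granin of secretory granules. Of 8 genes of spiral ganglion neuron identity, 6 fell and 1 rose, beside the same shares of all genes, with a median of -0.29. The vesicular glutamate transporters Slc17a6 (-0.87) and Slc17a7 (-0.65) and the transcription factor Prox1 (-0.83) were called lower. Gata3, a transcription factor of both spiral ganglion neurons and supporting cells, was called higher (0.65).

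Genes of growth and axon injury moved the other way. Of 25 listed, 22 were tested. By the adjusted p, 19 rose and 1 fell in Clrn1-/-Clrn2-/-, beside 19.1% and 17.9% of all genes. In this list 10 were called higher, beside 5.88% of all genes, and the median was 0.46. In Clrn1-/-, 14 rose and 2 fell with a median of 0.29, beside 13.6% and 13.3% of all genes. In Clrn2-/-, 13 rose with a median of 0.35, beside 7.14%. Atf3, a transcription factor induced by axon damage, lay at 7.36 ± 1.06 CPM in wild-type and at 29.3 ± 1.04 in the double mutant (SD, n = 3; log2 fold change 1.99, adjusted p = 1.22e-09). Sprr1a, a small protein of regenerating axons, lay at 0.136 ± 0.0529 and 6.09 ± 1.01 CPM, and Tnfrsf12a, the receptor of the cytokine TWEAK, at 24.8 ± 2.79 and 73.0 ± 3.73 CPM. Such genes are also expressed by other cells of the tissue.

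**Figure D4:**
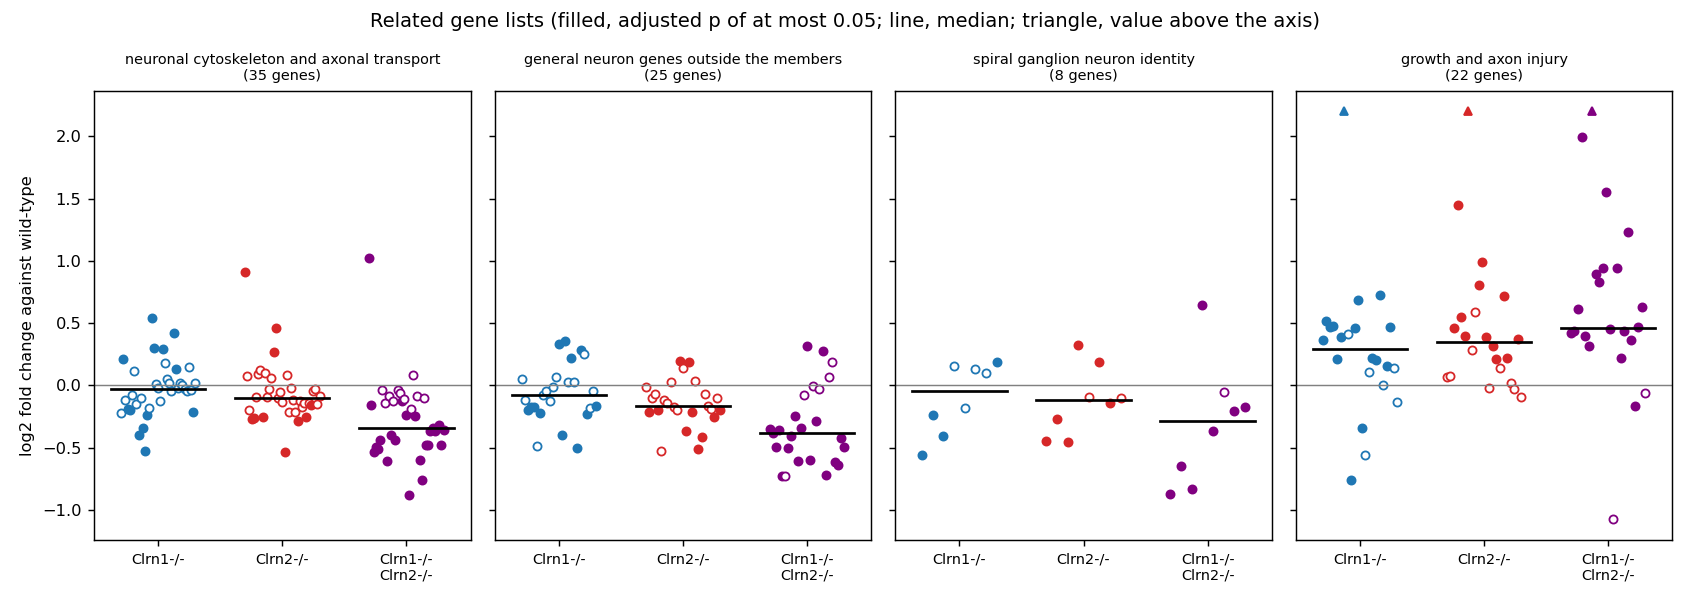
log2 fold change against wild-type (vertical axis) of the tested genes of 4 lists in the 3 mutants, each point a gene, filled where the adjusted p is at most 0.05, with the median as a line. The medians of the first 3 lists are lowest in Clrn1-/-Clrn2-/- (-0.34, -0.38 and -0.29), whereas the growth and axon injury genes have medians of 0.29, 0.35 and 0.46, and Sprr1a, drawn as a triangle, lies above the axis.

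Markers of other cell types were summed in each library to see what moved beside the neuron genes. Schwann cell and myelin genes, which ensheathe the same fibers, summed to 96.1% of wild-type in Clrn1-/-, to 98.5% in Clrn2-/- and to 93.7% in the double mutant, with 22409 to 23918 CPM in the double mutant. Of these 16 genes, 4 fell and 5 rose by the adjusted p in the double mutant, beside 17.9% and 19.1% of all genes. The median log2 fold change was 0.02. The largest decrease was that of S100b (-0.85), which is not restricted to Schwann cells. Supporting cell markers summed to 1634 to 1766 CPM in wild-type and to 2536 to 2707 CPM in the double mutant (154% of wild-type), with 8 of 10 genes up by the adjusted p. Fibroblast markers stood at 137% of wild-type in the double mutant with 5 of 6 up, and hair cell markers at 129% with 4 up and 1 down of 10. In Clrn1-/- and Clrn2-/-, fibroblast markers stood at 118.5% and 108.5%, and hair cell markers at 101.5% and 123.8%.

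Central nervous system glia markers, whose cells ensheathe the central part of the auditory nerve, summed to 1142 to 1843 CPM in wild-type. They summed to 1095 to 1400 CPM in Clrn1-/-Clrn2-/-, or 80.7% on average, with overlap, and 3 of 6 genes fell by the adjusted p (17.9% of all genes). Of these 6, Gfap alone was called in Clrn1-/-, where it was higher (0.66, adjusted p = 0.00328). Its interaction was called as well, at -0.64 (adjusted p = 0.0429). Bone markers summed to 71.2 to 125 CPM in wild-type, 147 to 178 CPM in Clrn1-/-, 77.8 to 109 CPM in Clrn2-/- and 135 to 161 CPM in the double mutant. In the double mutant 2 of 4 genes were up. T cell markers summed to 2.45 to 2.89 CPM in wild-type and 4.46 to 5.67 CPM in the double mutant. Nearly all of this difference came from Cd4, which is not restricted to T cells and rose from 0.978 ± 0.349 to 3.50 ± 0.548 CPM (SD, n = 3; adjusted p = 1.76e-05). Of that list 4 of 7 genes could be tested, and the other three did not pass the test. The T cell receptor genes Cd3e (0.461 and 0.410 CPM), Trac (0.372 and 0.375 CPM) and Cd3d (0.0548 and 0.0172 CPM) stayed below 0.5 CPM in wild-type and the double mutant. The part of these differences in the levels of the neuron genes was not tested.

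**Figure D5:**
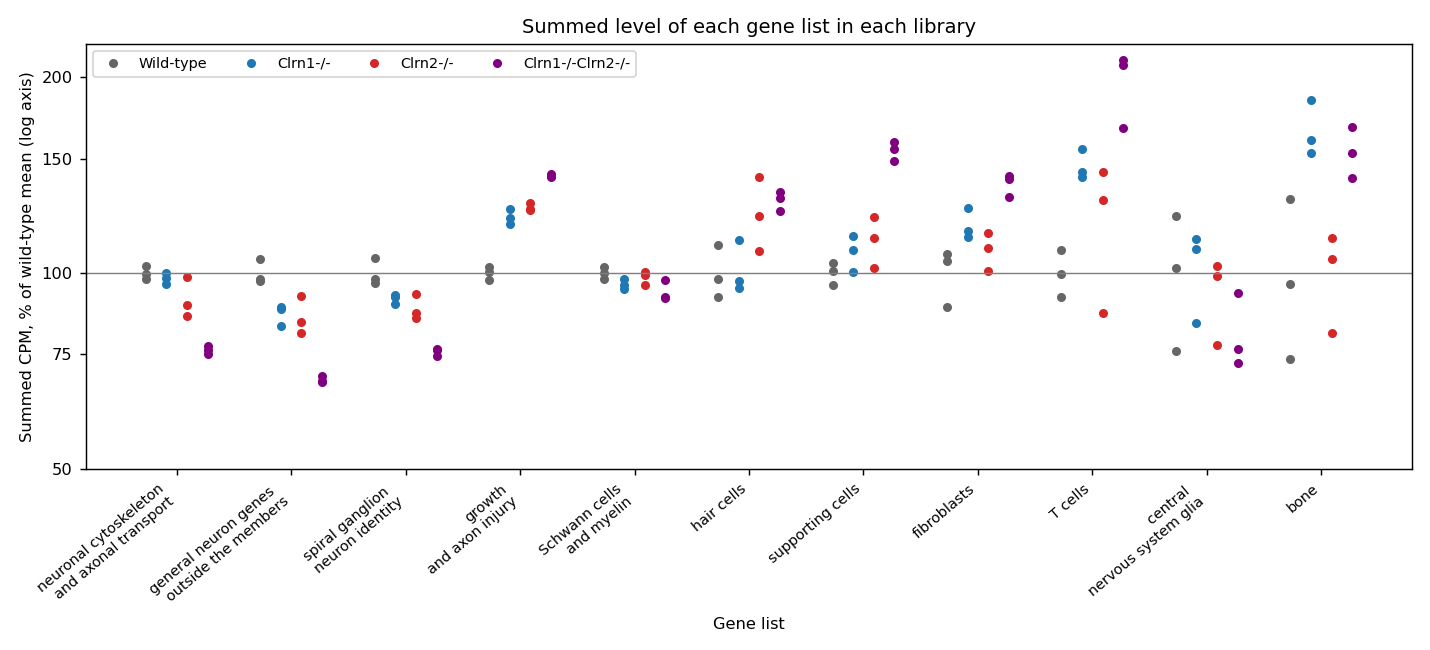
Summed CPM of each gene list in each library as a percentage of the wild-type mean (vertical log axis), by genotype. The neuronal lists lie near 69% to 76% in Clrn1-/-Clrn2-/-, Schwann cells and myelin stay at 93.7%, and supporting cells reach 154%.

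The genes whose pattern was most like that of the neurofilament triplet were sought over the 12 libraries, as Pearson correlation of log2(CPM + 0.5) with the mean of Nefl, Nefm and Nefh among the 12444 genes whose mean reached 5 CPM. They were Diras1 (0.995), a small GTPase, Mapk10 (0.993), a neuronal Jun kinase, Chgb (0.993), Pfkm (0.990), a phosphofructokinase, and Limk1 (0.990), a kinase of cofilin. Diras1 had means of 276, 238, 232 and 172 CPM in wild-type, Clrn1-/-, Clrn2-/- and the double mutant. Within the 10 genes, Thy1 (0.973), Stmn2 (0.973) and Ina (0.913) were close to the triplet, Tubb3 (0.671), Uchl1 (0.438) and Map2 (0.346) were not, and Gap43 was inverse (-0.70). The 12 points share genotype groups and libraries, and the correlations are a description without a test.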

How the data were processed

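The authors sequenced polyadenylated RNA of the organ of Corti with a strand-specific kit as paired reads and deposited raw STAR counts per gene on GRCm38.p6 with the Gencode vM24 annotation, without normalization or pooling, 1 file per library. From each file the column in the orientation of the kit was used, which held 95.2% to 95.5% of stranded counts. Rows of reads not assigned to a gene, 13.5% to 15.8% of the total, were left out. Groups followed the genotype labels.

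Genes were filtered with filterByExpr (minimum count 10), scaled by TMM and fitted over all 12 libraries with genotype alone in edgeR 4.0.16 (R 4.3.3), by the quasi-likelihood test with Benjamini-Hochberg adjustment over 19052 genes. A call needed a 1.5-fold change besides an adjusted p not above 0.05. The scripts were tested on simulated counts. Alternatives were limma-voom (3.58.1), DESeq2 (1.42.0), other scalings and filters, the 2 genotypes compared alone, no fold minimum, unstranded counts, a replicate block and each library left out. Transcript lengths (of the transcript with the longest open reading frame) and coordinates came from Gencode vM21, and promoters from RefSeq. Depth gives each member at least 101 counts per library.

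The members and lists were chosen with earlier results of these data known. The genes named from a list are up to 3 called per direction with the largest change in Clrn1-/-Clrn2-/- and a mean of at least 1 CPM in a group. The genotypes use the same replicate numbers, and what a number stands for is not given. After subtraction of the group means, the correlation of same-numbered libraries exceeded 0.1 for 7 of 18 pairs (range -0.281 to 0.310). Only for Clrn1-/- against wild-type did it do so in every pair (0.298, 0.140 and 0.116). Whether the numbers pair any libraries is not settled by these values. Protein, imaging and physiological data were not analysed here. Some items are not reported here.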

Additional observations from a re-analysis of the deposited data

Results flagged for a closer look

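In 2 of the 10 genes the test of the interaction in edgeR over all genes passed the adjusted p, for an effect of losing 1 clarin that differed with the presence of the other, beside 8.06% of all genes with a negative and 9.32% with a positive interaction. For Map2 the interaction was -0.75 on the log2 scale (standard error 0.0704, adjusted p = 5.31e-06). Its level rose in Clrn1-/- against wild-type and was lower in Clrn1-/-Clrn2-/- than in Clrn2-/-, in 3 of 3 libraries each time. For Nefm the interaction was -0.31 (standard error 0.0953, adjusted p = 0.034), with a log2 fold change of -0.06 for Clrn1-/- against wild-type and of -0.37 for Clrn1-/-Clrn2-/- against Clrn2-/-. The interaction of Nefm was under the fold minimum and thus not called. It no longer passed the adjusted p when Clrn1-/- replicate 2 (adjusted p = 0.056), Clrn1-/- replicate 3 (0.0507), Clrn1-/-Clrn2-/- replicate 2 (0.0639) or wild-type replicate 1 (0.0717) was left out.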

How the results depend on the processing

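Without the fold minimum, 6, 4 and 8 instead of 0, 0 and 5 genes were called against wild-type in Clrn1-/-, Clrn2-/- and Clrn1-/-Clrn2-/-, 7, 10 and 3 instead of 1, 0 and 0 for Clrn1-/-Clrn2-/- against Clrn1-/-, Clrn1-/-Clrn2-/- against Clrn2-/- and Clrn1-/- against Clrn2-/-, and 2 instead of 1 for the interaction. With library size alone, 2 instead of 5 genes were called in Clrn1-/-Clrn2-/- against wild-type, since Nefl (-0.58), Nefh (-0.58) and Thy1 (-0.55) came to lie under the fold minimum. limma-voom, DESeq2, both filters, the 2 genotypes alone and unstranded counts gave the same number of calls in each comparison, the 2 genotypes alone not being run for the interaction. By the adjusted p alone, the 2 genotypes alone gave 2 instead of 4 genes that fell in Clrn2-/-, 6 instead of 5 in Clrn1-/- and 8 instead of 7 in Clrn1-/-Clrn2-/- against wild-type.

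Leaving out 1 library gave 0 to 1 calls in Clrn1-/- (Map2, without wild-type replicate 3), 0 to 1 in Clrn2-/- (Ina, without Clrn2-/- replicate 1), 2 to 6 in Clrn1-/-Clrn2-/- against wild-type and 0 to 1 in Clrn1-/-Clrn2-/- against Clrn2-/- (Gap43, without Clrn2-/- replicate 2 or Clrn1-/-Clrn2-/- replicate 1). It turned the direction of small differences. These were Gap43 in Clrn2-/- against wild-type (-0.0516 to 0.221), Uchl1 in Clrn1-/-Clrn2-/- against Clrn1-/- (-0.0068 to 0.0427), Thy1 in the interaction (-0.11 to 0.0553), and, in Clrn1-/- against Clrn2-/-, Nefl (-0.0686 to 0.0069), Nefh (-0.0223 to 0.147), Thy1 (-0.0504 to 0.093), Stmn2 (-0.061 to 0.0174) and Gap43 (-0.0364 to 0.358). None of these passed the test with all libraries.

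With the replicate number as a block, the fit gave 0 calls in Clrn1-/- against wild-type, as without it, and the block changed no other call. Shares of raw counts instead of shares per length follow in the order wild-type, Clrn1-/-, Clrn2-/- and double mutant. Nefl held 30.2%, 28.6%, 30.4% and 29.9%, and Nefm 30.0%, 32.6%, 31.1% and 31.1%. Nefh held 35.1%, 34.7%, 34.7% and 34.7%, and Ina 4.72%, 4.04%, 3.87% and 4.30%. The 3 libraries per genotype limit the precision, and for Gap43 depth does as well. Values in CPM are relative to the rest of the tissue, in which the summed marker levels of other cell types differed between genotypes.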
